A study of Homo sapiens with 15 samples.

Results

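The response of HepG2 cells to strong-cloaked mRNA was read from 6 of the 15 libraries of the series: 3 from cells that had received strong-cloaked mRNA and 3 from untransfected cells. HepG2 is an established human hepatocellular carcinoma line, and all cells were wild type. The strong-cloaked mRNA codes for enhanced green fluorescent protein, had been kept with 1 M of a reagent named CR-3 for 2 h at 37 °C, and was given at 1 µg with the NanoLNP transfection reagent. Cells of both groups were lysed 48 h after transfection, in 3 biological replicates per group as the titles state. The other 9 libraries came from cells given the same mRNA non-cloaked, weak-cloaked (0.1 M, 0.5 h, 25 °C) or medium-cloaked (0.5 M, 1 h, 30 °C). No group received particles without mRNA, so particle, mRNA and cloaking cannot be told apart in the comparison with untransfected cells. The series states as its aim to learn how cloaking changes expression genome-wide.

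Particles that carry mRNA enter cells by endocytosis, and a small part of the cargo escapes the endosome into the cytosol, where it is translated. Foreign RNA can be sensed in the endosome by toll-like receptors and in the cytosol by the helicases RIG-I and MDA5 and the kinase PKR, which lead to interferon, inflammatory cytokines and a block of translation. Hepatocytes, the cells that HepG2 derives from, make most plasma proteins and carry out gluconeogenesis, lipid and bile acid synthesis and drug metabolism. The members of these pathways are described below by their roles.

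The libraries held 68297832 to 78548789 counts in strong-cloaked cells and 73011663 to 76476960 in untransfected cells. The 50 most abundant genes took 21.24% to 22.14% of counts in strong-cloaked cells and 18.31% to 19.1% in untransfected cells. Protein-coding genes of the mitochondrial genome took 2.017% to 2.084% and 2.405% to 2.747% of counts in these groups. Scaling factors (TMM, edgeR's trimmed mean of M-values) were 0.924 to 0.961 in strong-cloaked and 1.126 to 1.150 in untransfected libraries, so the way libraries are scaled sets the split of increases and decreases. Of 14 hepatocyte markers, all were measured, and their summed level was 25850.0 to 28290.0 CPM in strong-cloaked cells and 21200.0 to 23760.0 CPM in untransfected cells. By the test given below, 2 of these markers were higher and 2 lower, with a median log2 fold change of 0.02. With libraries scaled to their total counts, 1 was higher and 6 were lower, with a median of -0.25. On the first principal component (21.13% of the variance), strong-cloaked libraries lay between -41.69 and -11.85 and untransfected libraries between 68.58 and 70.55. Weak-cloaked replicate 1 lay at 51.63, near the untransfected libraries and apart from its own group. In the comparison with untransfected cells it enters only through the low-count filter, the scaling and the estimate of spread.

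Of 18380 genes tested, 2776 (15.1%) differed between strong-cloaked and untransfected cells by edgeR's quasi-likelihood test at a Benjamini-Hochberg adjusted p below 0.05. Of these, 1469 (7.99%) were higher in strong-cloaked cells and 1307 (7.11%) were lower. Differences of at least 2-fold were more often decreases: of 1068 such genes (5.81%), 386 (2.1%) were higher and 682 (3.71%) were lower. Levels are given as CPM, the count of a gene scaled to its library's TMM-adjusted total. The CPM values of strong-cloaked libraries lay above all untransfected libraries for 3500 genes (19%) and below them for 3904 (21.2%). These shares are the background for the counts of each gene list below with TMM scaling. Among called genes, 1453 of the 1469 higher and 1298 of the 1307 lower showed no overlap between the groups. A lack of overlap given below for a called gene therefore adds little to its call. Of 15374 protein-coding genes, 1347 rose and 1198 fell. Long noncoding RNAs counted 53 increases and 82 decreases among 1750. Pseudogenes counted 58 increases and 18 decreases among 1036, and their reads may in part belong to a parent gene. In bulk RNA, fewer cells expressing a gene and less RNA per cell cannot be told apart.

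With S1 to S3 for the strong-cloaked replicates and U1 to U3 for the untransfected ones, the number of called genes was 1497, 917 and 728 without S1, S2 and S3, and 1266, 948 and 1757 without U1, U2 and U3. Leaving out weak-cloaked replicate 1, which is in neither compared group but adds to the spread, gave 4191. The low-count filter then passed 18823 genes in place of 18380. When libraries were scaled to their total counts in place of TMM, 652 genes were higher and 2901 lower, so that increases made up 18.4% of calls, against 52.9% with TMM. The median log2 fold change of all tested genes was then -0.32, against -0.05 with TMM, and list medians are read against that shift. List counts with total-count scaling are read against 652 higher and 2901 lower of 18380 genes. Those with offsets for transcript length and GC content are read against 1727 higher and 1167 lower of 18286.

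**Figure D1:**
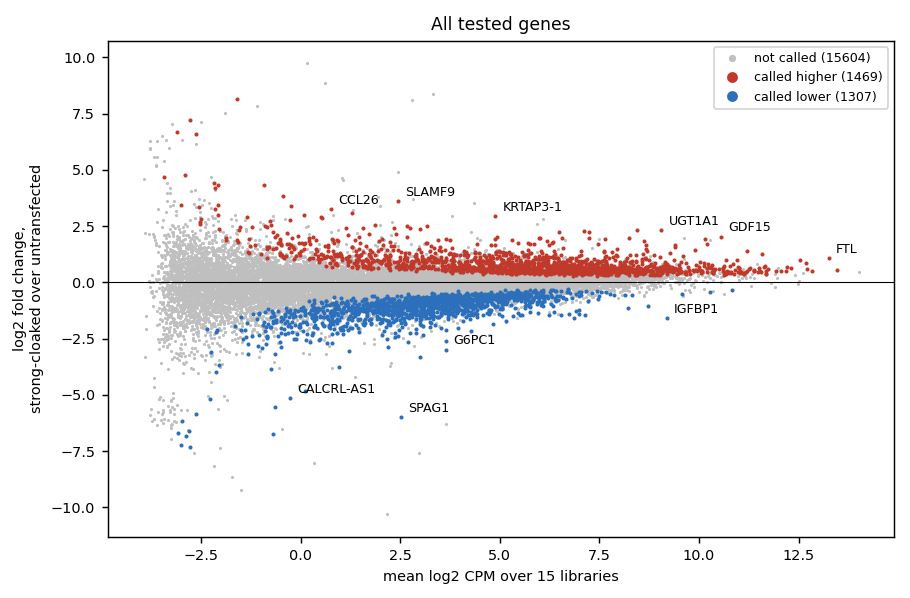
Log2 fold change of strong-cloaked over untransfected cells (vertical axis) against mean log2 CPM over the 15 libraries (horizontal axis) for each of the 18380 tested genes. Coloured points are the 1469 genes called higher and the 1307 called lower at an adjusted p below 0.05, and grey points are the rest.

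The gene with the smallest p was SPAG1, an assembly factor for the dynein arms of cilia. SPAG1 had 0.146, 0.377 and 0.233 CPM in strong-cloaked cells, against 10.8, 13.8 and 23.6 CPM in untransfected cells, a log2 fold change of -5.996 ± 0.47 (SE; edgeR adjusted p = 0.000105). All 3 strong-cloaked libraries were near 0 and all 3 untransfected libraries were well above them. SPAG1 is annotated on chromosome 8. The antisense transcript CALCRL-AS1 (chromosome 2, 187003220 to 187554663, plus strand) had 0.0397, 0.0471 and 0.03102 CPM in strong-cloaked cells, against 0.973, 2.402 and 0.976 CPM in untransfected cells, a log2 fold change of -5.15 ± 0.74 (SE; edgeR adjusted p = 0.00237). The strand setting of the counting is not given, so its reads cannot be told apart from those of genes on the other strand.

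The 12 largest increases were read among calls whose log2 CPM averaged 1 or more over the 15 libraries and whose groups did not overlap. SLAMF9, a receptor of the SLAM family (chromosome 1, 159951492 to 159954254, minus strand), had 8.25, 10.3 and 4.25 CPM in strong-cloaked cells, against 0.656, 1.08 and 0.128 CPM in untransfected cells, a log2 fold change of 3.61 ± 0.54 (SE; edgeR adjusted p = 0.00273). KRTAP3-1, a keratin-associated protein of the hair shaft (chromosome 17, 41008521 to 41019324, minus strand), had 35.3, 38.9 and 37.1 CPM in strong-cloaked cells, against 3.65, 5.89 and 4.996 CPM in untransfected cells, a log2 fold change of 2.94 ± 0.33 (SE; edgeR adjusted p = 0.000788). PAEP, the secreted lipocalin glycodelin, had 4.07, 5.78 and 3.85 CPM in strong-cloaked cells, against 0.766, 1.05 and 0.732 CPM in untransfected cells, a log2 fold change of 2.42 ± 0.28 (SE; edgeR adjusted p = 0.000788). That every strong-cloaked library exceeded every untransfected one in each of these genes follows from this choice. TNFRSF1B, the second receptor for tumor necrosis factor, rose by 2.54 ± 0.42 and ADGRG3, an adhesion G protein-coupled receptor, by 2.399 ± 0.32 on the log2 scale. The mast cell tryptases TPSAB1 (2.49 ± 0.28) and TPSB2 (2.35 ± 0.29) also rose, but they are near-identical neighbours whose reads could be split between them. HSD17B7P2 (3.08 ± 0.66) is a pseudogene and its reads may belong to HSD17B7. TENT5B, a poly(A) polymerase, rose by 2.504 ± 0.57 and NOS1AP, an adaptor of nitric oxide synthase, by 2.43 ± 0.56. SPAG1, CALCRL-AS1, SLAMF9, KRTAP3-1, PAEP, TNFRSF1B, ADGRG3, TPSAB1 and TPSB2 passed the test whichever of the 6 libraries was left out. HSD17B7P2 lost its call without U2 (edgeR adjusted p = 0.0523), as did TENT5B without S3, U1 or U2 (0.0563 to 0.0642) and NOS1AP without S3 or U1 (0.0574 to 0.0659).

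The 10 genes of smallest p included increases of low and of high expression. CCL26, the chemokine eotaxin-3 (chromosome 7, 75769533 to 75789896, minus strand), had 2.01, 2.23 and 2.06 CPM in strong-cloaked cells, against 0.122, 0.275 and 0.256 CPM in untransfected cells, a log2 fold change of 3.26 ± 0.28 (SE; edgeR adjusted p = 0.000113). AREG, the epidermal growth factor receptor ligand amphiregulin (chromosome 4, 74445134 to 74455009, plus strand), had 9.32, 9.17 and 9.93 CPM in strong-cloaked cells, against 2.65, 2.35 and 3.35 CPM in untransfected cells, a log2 fold change of 1.77 ± 0.18 (SE; edgeR adjusted p = 0.000597). ANGPTL8, an insulin-responsive inhibitor of lipoprotein lipase made by liver (chromosome 19, 11237450 to 11241943, plus strand), had 888, 935 and 829.6 CPM in strong-cloaked cells, against 283, 332 and 216 CPM in untransfected cells, a log2 fold change of 1.68 ± 0.17 (SE; edgeR adjusted p = 0.000597). The 3 strong-cloaked libraries lay close together and above every untransfected library in all of these, which goes with their choice by smallest p. WNT7B, a WNT ligand, rose by 2.14 ± 0.23 (edgeR adjusted p = 0.000788), and LGALS1, the secreted lectin galectin-1, by 1.91 ± 0.17 (edgeR adjusted p = 0.000113). The antagonist of the interleukin-1 receptor, IL1RN (chromosome 2, 113107214 to 113134016, plus strand), went the other way, with 9.42, 8.15 and 8.22 CPM in strong-cloaked cells, against 22.003, 26.6 and 21.99 CPM in untransfected cells, a log2 fold change of -1.45 ± 0.16 (SE; edgeR adjusted p = 0.000788). ALDH3A1, an aldehyde dehydrogenase, rose by 1.94 ± 0.17 and S100A14, a calcium-binding protein, by 1.88 ± 0.21. CCL26, AREG, ANGPTL8, WNT7B, LGALS1, IL1RN, ALDH3A1 and S100A14 passed the test whichever of the 6 libraries was left out.

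**Figure D2:**
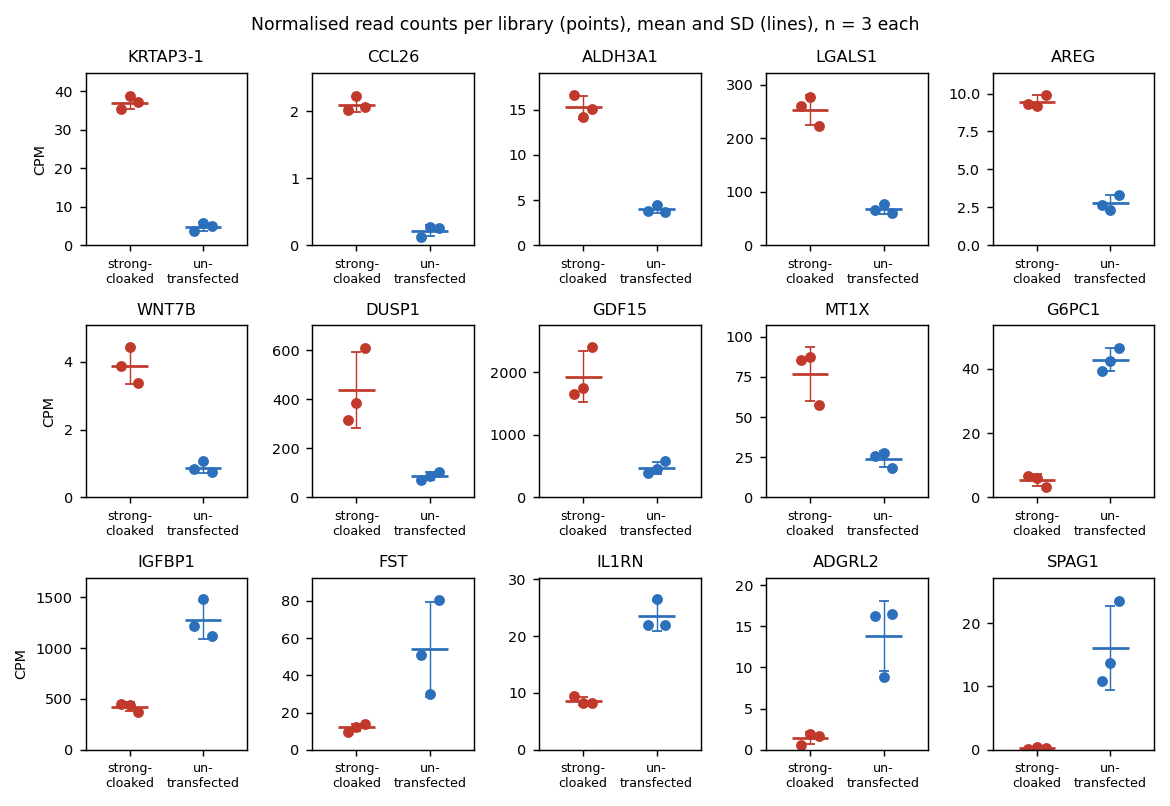
CPM on linear axes that start at 0 for 15 genes, with strong-cloaked libraries left of untransfected ones; points are libraries, and lines are the mean and SD of 3. In every panel the points of the groups are apart: 9 genes from KRTAP3-1 to MT1X are higher and 6 from G6PC1 to SPAG1 are lower in strong-cloaked cells.

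The largest decreases after SPAG1, read by the same rule, came from genes of many functions. ADGRL2, an adhesion G protein-coupled receptor, had 0.556, 1.96 and 1.68 CPM in strong-cloaked cells, against 16.2, 8.88 and 16.4 CPM in untransfected cells, a log2 fold change of -3.31 ± 0.76 (SE; edgeR adjusted p = 0.0173). FLRT2, a guidance protein of the cell surface (chromosome 14, 85530144 to 85654426, plus strand), had 2.91, 2.51 and 1.78 CPM in strong-cloaked cells, against 13.3, 12.4 and 12.9 CPM in untransfected cells, a log2 fold change of -2.42 ± 0.47 (SE; edgeR adjusted p = 0.00927). MBTD1, a reader of methylated histones in the NuA4 complex (chromosome 17, 51177425 to 51260163, minus strand), had 2.73, 1.54 and 1.33 CPM in strong-cloaked cells, against 9.65, 12.6 and 10.4 CPM in untransfected cells, a log2 fold change of -2.54 ± 0.48 (SE; edgeR adjusted p = 0.00793). That every untransfected library exceeded every strong-cloaked one in these genes follows from that rule. The DNA helicase PIF1 (-3.06 ± 0.91), the molybdopterin synthase sulfurylase MOCS3 (-2.64 ± 0.64), the channel kinase TRPM7 (-2.395 ± 0.61), the splicing factor RBM5 (-2.34 ± 0.67) and the zinc finger genes ZNF362 (-2.88 ± 0.85) and ZNF587B (-2.35 ± 0.49) also fell on the log2 scale. FLRT2 and MBTD1 passed the test whichever of the 6 libraries was left out. ADGRL2 lost its call without S1 or S3 (edgeR adjusted p = 0.0519 to 0.0595), as did PIF1 without S1, S2, U1, U2 or U3 (0.0624 to 0.118), MOCS3 without S2, S3 or U2 (0.0511 to 0.0606), TRPM7 without S2, S3, U1, U2 or U3 (0.052 to 0.0861), RBM5 without S1, S2, S3, U1 or U2 (0.0654 to 0.109), ZNF362 without each library in turn (0.068 to 0.136) and ZNF587B without S3 (0.0519). The calls of PIF1, RBM5 and ZNF362 ended without a low-count filter and that of PIF1 in a fit of the 2 groups alone.

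Immediate early genes, which growth factor and stress kinases switch on within minutes and which are mostly short-lived, were in part higher 48 h after transfection. Of 27 tested, 13 rose and 0 fell, against 7.99% and 7.11% of all genes, and the median log2 fold change was 0.79. CCN1, a matricellular protein (chromosome 1, 85580761 to 85583962, plus strand), had 106, 193 and 192 CPM in strong-cloaked cells, against 30.5, 32.1 and 38.2 CPM in untransfected cells, a log2 fold change of 2.29 ± 0.41 (SE; edgeR adjusted p = 0.00747). FOSB, a partner of JUN in the AP-1 factor, had 2.26, 2.48 and 7.29 CPM in strong-cloaked cells, against 0.814, 0.801 and 1.32 CPM in untransfected cells, a log2 fold change of 2.03 ± 0.57 (SE; edgeR adjusted p = 0.032). KLF6, a Kruppel-like factor (chromosome 10, 3775996 to 3785281, minus strand), had 152, 173 and 306 CPM in strong-cloaked cells, against 48.4, 60.9 and 83.8 CPM in untransfected cells, a log2 fold change of 1.71 ± 0.34 (SE; edgeR adjusted p = 0.0109). In these genes no untransfected library reached the lowest strong-cloaked one, and the same held for ATF3, a repressor of the stress response, which had 76.9, 85.4 and 98.5 CPM in strong-cloaked cells, against 17.8, 29.7 and 34.4 CPM in untransfected cells, a log2 fold change of 1.67 ± 0.34 (SE; edgeR adjusted p = 0.0117). NR4A2, an orphan nuclear receptor, rose by 1.3998 ± 0.41. Uncalled members included FOS with 12.7, 12.6 and 32.3 CPM in strong-cloaked cells, against 6.32, 7.16 and 9.92 CPM in untransfected cells (edgeR adjusted p = 0.0825) and EGR1 with 9.68, 8.18 and 43.5 CPM in strong-cloaked cells, against 7.01, 5.78 and 9.399 CPM in untransfected cells (edgeR adjusted p = 0.175), while MYC was at 110.4, 105 and 72.3 CPM in strong-cloaked cells, against 119.9, 106 and 178 CPM in untransfected cells (edgeR adjusted p = 0.193). CCN1, KLF6 and ATF3 passed the test whichever of the 6 libraries was left out. FOSB lost its call without S3, U1, U2 or U3 (edgeR adjusted p = 0.0531 to 0.152), as did NR4A2 without S1, S3, U1, U2 or U3 (0.0726 to 0.171). The call of NR4A2 ended with total-count scaling, without a low-count filter or in a fit of the 2 groups alone. The number of increases in the list was 6 to 10 (lowest without S3) when 1 library was left out, and 8 with total-count scaling. Immediate early genes counted 8 higher and 0 lower genes with total-count scaling.

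Feedback inhibitors of the mitogen-activated protein kinases counted 4 increases and 0 decreases among 17 (median log2 fold change 0.49). DUSP1, the immediate early phosphatase of p38 and JNK (chromosome 5, 172768090 to 172771195, minus strand), had 315, 384 and 611 CPM in strong-cloaked cells, against 70.5, 88.2 and 105 CPM in untransfected cells, a log2 fold change of 2.31 ± 0.43 (SE; edgeR adjusted p = 0.00906). DUSP5, a nuclear phosphatase of ERK (chromosome 10, 110497838 to 110511544, plus strand), had 220.0, 249 and 229 CPM in strong-cloaked cells, against 123, 145 and 118 CPM in untransfected cells, a log2 fold change of 0.85 ± 0.15 (SE; edgeR adjusted p = 0.00637). DUSP10 and DUSP16, which act on stress kinases, rose by 1.02 ± 0.25 and 1.13 ± 0.27. The ERK phosphatase DUSP6 was at 133, 139.8 and 111 CPM in strong-cloaked cells, against 104, 121 and 153 CPM in untransfected cells (edgeR adjusted p = 0.936), with the groups overlapping. DUSP1 and DUSP5 passed the test whichever of the 6 libraries was left out. DUSP10 lost its call without S2, S3, U1 or U2 (edgeR adjusted p = 0.0577 to 0.0719), as did DUSP16 without S3, U1 or U2 (0.0621 to 0.079). The feedback list counted 2 to 4 (lowest without S3, U1 or U2) that were higher with 1 library left out.

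The promoters of DUSP1 and AREG are shown because both genes rose and both hold the full cyclic AMP response element TGACGTCA, the site of CREB and ATF factors. The sequences are those of RefSeq (GRCh38.p14), from 250 bases before to 50 bases after the start, 5′ to 3′ on the gene's strand, with the element in capitals. DUSP1 is at chr5:172771146-172771445 on the minus strand and AREG at chr4:74444886-74445185 on the plus strand.
DUSP1: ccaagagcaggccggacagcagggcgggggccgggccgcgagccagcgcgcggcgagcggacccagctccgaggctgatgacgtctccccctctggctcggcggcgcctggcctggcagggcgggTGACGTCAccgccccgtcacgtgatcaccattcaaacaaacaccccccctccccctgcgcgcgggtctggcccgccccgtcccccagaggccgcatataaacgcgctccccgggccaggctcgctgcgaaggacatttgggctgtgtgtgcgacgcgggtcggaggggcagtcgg
AREG: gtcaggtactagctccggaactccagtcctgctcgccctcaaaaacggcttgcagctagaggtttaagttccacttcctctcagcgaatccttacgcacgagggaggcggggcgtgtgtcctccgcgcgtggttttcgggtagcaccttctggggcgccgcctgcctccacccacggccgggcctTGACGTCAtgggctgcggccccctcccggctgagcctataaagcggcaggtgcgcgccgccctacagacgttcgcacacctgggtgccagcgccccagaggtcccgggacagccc
The element begins 125 bases before the start of DUSP1 and 65 bases before that of AREG. It reads the same on both strands, and 649 of 35116 RefSeq promoters of this length (1.85%) hold it. Among immediate early genes, 20 of 27 had a promoter in the table and 1 of them (JUND) held the element. These matches describe the letters of the window only.

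Targets of p53, the factor that DNA damage and other stresses stabilise, included cell cycle inhibitors and death genes among their increases. Of 25 tested, 9 rose and 1 fell (median 0.46). CDKN1A, the kinase inhibitor p21 (chromosome 6, 36676460 to 36687339, plus strand), had 527, 467 and 581 CPM in strong-cloaked cells, against 176, 201 and 221 CPM in untransfected cells, a log2 fold change of 1.398 ± 0.21 (SE; edgeR adjusted p = 0.00273). GADD45A, a sensor of growth arrest and DNA damage (chromosome 1, 67685061 to 67688338, plus strand), had 293, 351 and 475 CPM in strong-cloaked cells, against 76.9, 81.2 and 132 CPM in untransfected cells, a log2 fold change of 1.95 ± 0.35 (SE; edgeR adjusted p = 0.0067). BBC3, the death promoter PUMA (chromosome 19, 47220822 to 47232766, minus strand), had 39.8, 49.1 and 69.4 CPM in strong-cloaked cells, against 12.4, 16.03 and 19.03 CPM in untransfected cells, a log2 fold change of 1.74 ± 0.32 (SE; edgeR adjusted p = 0.00782). These 3 genes had all strong-cloaked libraries above all untransfected ones. The polo-like kinases PLK2 (1.77 ± 0.32) and PLK3 (2.26 ± 0.45) and GADD45B (1.96 ± 0.55) also rose. MDM2, the ubiquitin ligase that p53 induces against itself, had 39.7, 38.3 and 32.4 CPM in strong-cloaked cells, against 50.2, 38.8 and 86.9 CPM in untransfected cells (edgeR adjusted p = 0.269), and its groups overlapped. The only decrease called in the list was that of XPC, a DNA damage recognition protein picked out here after its values were seen (-0.802 ± 0.201, edgeR adjusted p = 0.022), and it lost its call without S3, U1 or U2. CDKN1A, GADD45A, BBC3, PLK2 and PLK3 passed the test whichever of the 6 libraries was left out. GADD45B lost its call without S2, S3, U1, U2 or U3 (edgeR adjusted p = 0.063 to 0.137). The call of GADD45B ended without a low-count filter. The list's number of increases was 5 to 7 (lowest without S2, S3 or U2) when 1 library was left out.

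Targets of ATF4, the factor of the integrated stress response, counted 4 increases and 0 decreases among 25 (median 0.27; -0.01 with total-count scaling). GDF15, a secreted stress cytokine (chromosome 19, 18374731 to 18389176, plus strand), had 1651, 1744 and 2396 CPM in strong-cloaked cells, against 390.1, 456 and 575 CPM in untransfected cells, a log2 fold change of 2.03 ± 0.38 (SE; edgeR adjusted p = 0.00829). PPP1R15A, the phosphatase subunit that reverses the block of translation (chromosome 19, 48872392 to 48876057, plus strand), had 142, 169 and 265 CPM in strong-cloaked cells, against 47.4, 57.7 and 43.6 CPM in untransfected cells, a log2 fold change of 1.95 ± 0.45 (SE; edgeR adjusted p = 0.0173). DDIT3, the death-linked factor CHOP, had 27.3, 34.9 and 52.3 CPM in strong-cloaked cells, against 16.3, 16.3 and 12.3 CPM in untransfected cells, a log2 fold change of 1.35 ± 0.29 (SE; edgeR adjusted p = 0.0129). The groups did not overlap in these genes. CEBPB, a liver and stress factor, rose by 0.42 ± 0.11. The asparagine synthetase ASNS was at 154, 176 and 148 CPM in strong-cloaked cells, against 151, 165 and 122 CPM in untransfected cells (edgeR adjusted p = 0.461) and the regulator TRIB3 at 91.7, 80.8 and 65.6 CPM in strong-cloaked cells, against 69.02, 89.3 and 47.1 CPM in untransfected cells (edgeR adjusted p = 0.496). GDF15 passed the test whichever of the 6 libraries was left out. PPP1R15A lost its call without S3, U1, U2 or U3 (edgeR adjusted p = 0.0512 to 0.0659), as did DDIT3 without S3 (0.0568) and CEBPB without each library in turn (0.0516 to 0.0933). The call of CEBPB ended with total-count scaling or with length and GC offsets. The list's number of increases was 2 to 3 (lowest without S3, U1, U2 or U3) when 1 library was left out. ATF4 targets counted 3 higher and 3 lower genes with total-count scaling.

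Chaperones of the endoplasmic reticulum, which the unfolded protein response induces, counted increases and no decrease. Of 27 tested, 10 rose and 0 fell (median 0.32), and the strong-cloaked libraries were above all untransfected ones for 16, against 19% of all genes. HSPA5, the chaperone BiP (chromosome 9, 125234853 to 125241330, minus strand), had 1679, 1921 and 2612 CPM in strong-cloaked cells, against 1240.3, 1197 and 1126 CPM in untransfected cells, a log2 fold change of 0.802 ± 0.201 (SE; edgeR adjusted p = 0.0221). HYOU1, a co-chaperone of BiP, had 608, 537 and 661 CPM in strong-cloaked cells, against 417, 357 and 379 CPM in untransfected cells, a log2 fold change of 0.65 ± 0.16 (SE; edgeR adjusted p = 0.0187). P4HB, protein disulfide isomerase (chromosome 17, 81843159 to 81860694, minus strand), had 3532, 3735 and 3680.0 CPM in strong-cloaked cells, against 2261, 2275 and 2113 CPM in untransfected cells, a log2 fold change of 0.72 ± 0.13 (SE; edgeR adjusted p = 0.00646). The increases were moderate, and the groups did not overlap. HERPUD1, a protein of degradation at the reticulum, rose by 0.83 ± 0.24 and ERN1, the stress sensor IRE1, by 1.14 ± 0.34. P4HB passed the test whichever of the 6 libraries was left out. HSPA5 lost its call without S2, S3, U1, U2 or U3 (edgeR adjusted p = 0.0505 to 0.0946), as did HERPUD1 without each library in turn (0.0523 to 0.125), ERN1 without each library in turn (0.0531 to 0.161) and HYOU1 without S3 or U2 (0.0666 to 0.0731). The calls of HERPUD1 and ERN1 ended with total-count scaling. The number of increases was 1 to 4 (lowest without S3 or U2) when 1 library was left out. Cytosolic heat shock genes counted 2 increases and 0 decreases among 23 (median 0.15; -0.11 with total-count scaling). The larger increase was that of DNAJB1, a co-chaperone (1.85 ± 0.55, edgeR adjusted p = 0.0409). DNAJB1 lost its call without S2, S3, U1, U2 or U3 (edgeR adjusted p = 0.0609 to 0.191). The call of DNAJB1 ended without a low-count filter. The chaperone list of the reticulum counted 3 higher and 1 lower genes with total-count scaling. Heat shock genes counted 1 higher and 3 lower genes with total-count scaling.

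The promoters of HSPA5 and CALR, the calcium-binding chaperone calreticulin, which rose by 0.51 ± 0.14 on the log2 scale, are shown because both hold the full endoplasmic reticulum stress element, CCAAT and CCACG with 9 bases between them. They are RefSeq sequences (GRCh38.p14) of the same window on the gene's strand, with the element in capitals. HSPA5 is at chr9:125241294-125241593 on the minus strand and CALR at chr19:12938359-12938658 on the plus strand.
HSPA5: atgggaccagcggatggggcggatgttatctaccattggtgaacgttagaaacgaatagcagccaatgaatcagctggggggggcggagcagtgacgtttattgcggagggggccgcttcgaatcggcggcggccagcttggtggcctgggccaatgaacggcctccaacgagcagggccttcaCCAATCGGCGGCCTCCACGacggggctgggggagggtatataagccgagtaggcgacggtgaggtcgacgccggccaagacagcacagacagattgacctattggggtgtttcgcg
CALR: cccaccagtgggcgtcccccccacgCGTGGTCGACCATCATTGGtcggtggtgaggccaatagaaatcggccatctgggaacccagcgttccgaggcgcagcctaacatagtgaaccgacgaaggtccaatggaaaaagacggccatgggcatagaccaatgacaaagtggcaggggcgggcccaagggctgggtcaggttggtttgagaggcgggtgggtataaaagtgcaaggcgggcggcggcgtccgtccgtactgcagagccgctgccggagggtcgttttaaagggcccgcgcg
The element begins 66 bases before the start of HSPA5 and, on the opposite strand, 225 bases before that of CALR. Of 35116 promoters, 27 (0.0769%) held it on either strand. Of the 27 members of the list, 24 had a promoter in the table and 8 of these held the element: HSPA5, HSP90B1, CALR, CANX, PDIA6, CRELD2, XBP1 and ERO1B. Of the 8 matched members that rose, 3 held it. CALR lost its call without each library in turn (edgeR adjusted p = 0.0556 to 0.104). The call of CALR ended with total-count scaling.

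Metallothioneins, small proteins that bind zinc and copper and rise with free zinc through the factor MTF1, counted increases and no decrease. Of 13 metallothioneins and zinc transporters tested, 5 rose and 0 fell (median 0.47). MT2A (chromosome 16, 56608199 to 56609497, plus strand) had 253, 289 and 223 CPM in strong-cloaked cells, against 98.2, 120.3 and 80.3 CPM in untransfected cells, a log2 fold change of 1.36 ± 0.21 (SE; edgeR adjusted p = 0.00313). MT1X (chromosome 16, 56682424 to 56684196, plus strand) had 85.3, 87.4 and 57.4 CPM in strong-cloaked cells, against 25.9, 27.6 and 18.2 CPM in untransfected cells, a log2 fold change of 1.68 ± 0.195 (SE; edgeR adjusted p = 0.000788). MT1A (chromosome 16, 56638666 to 56640087, plus strand) had 7.14, 8.84 and 6.42 CPM in strong-cloaked cells, against 0.863, 1.98 and 1.34 CPM in untransfected cells, a log2 fold change of 2.42 ± 0.31 (SE; edgeR adjusted p = 0.00125). All strong-cloaked libraries were above all untransfected ones in these genes. MT1G rose by 1.05 ± 0.21, and SLC39A4, an importer of zinc, by 0.68 ± 0.15. SLC30A1, the zinc exporter that MTF1 also controls, was at 72.1, 80.6 and 109 CPM in strong-cloaked cells, against 52.1, 56.6 and 80.6 CPM in untransfected cells (edgeR adjusted p = 0.0799). The metallothionein genes lie side by side and are similar in sequence, so reads may have been split between them. MT2A, MT1X, MT1A and MT1G passed the test whichever of the 6 libraries was left out. SLC39A4 lost its call without S3 (edgeR adjusted p = 0.0543). The number of increases was 4 to 6 (lowest without S3) when 1 library was left out.

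The promoters of MT2A and MT1X are shown for the cores of the metal response element, TGCACNC or TGCGCNC on either strand, which are in capitals. They are RefSeq sequences (GRCh38.p14) of the same window, MT2A at chr16:56608334-56608633 and MT1X at chr16:56682220-56682519, both on the plus strand.
MT2A: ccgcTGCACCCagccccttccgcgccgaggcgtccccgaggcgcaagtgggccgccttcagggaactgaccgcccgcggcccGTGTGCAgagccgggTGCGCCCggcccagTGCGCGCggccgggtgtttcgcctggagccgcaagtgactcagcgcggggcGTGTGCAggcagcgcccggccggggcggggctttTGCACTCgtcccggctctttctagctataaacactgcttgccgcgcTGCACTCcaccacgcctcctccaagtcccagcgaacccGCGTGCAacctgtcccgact
MT1X: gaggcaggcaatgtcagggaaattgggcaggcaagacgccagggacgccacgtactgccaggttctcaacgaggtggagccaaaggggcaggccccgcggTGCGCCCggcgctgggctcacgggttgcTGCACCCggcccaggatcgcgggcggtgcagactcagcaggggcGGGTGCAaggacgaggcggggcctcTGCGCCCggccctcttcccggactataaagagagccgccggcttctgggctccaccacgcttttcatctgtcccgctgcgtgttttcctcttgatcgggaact
MT2A holds 8 cores, 5 on its own strand and 3 on the opposite one, and MT1X holds 4, of which 3 are on its own strand. The core is short, and 10377 of 35116 promoters (29.6%) hold at least 1. Of 15 members of the list, 8 had a promoter in the table and 5 of these held a core.

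Targets of NRF2, the factor of the oxidative stress response, and genes of iron storage counted 10 increases and 1 decrease among 29 (median 0.41). FTL, the ferritin light chain (chromosome 19, 48965301 to 48966878, plus strand), had 10316, 10339 and 13524 CPM in strong-cloaked cells, against 5834, 4738 and 5711 CPM in untransfected cells, a log2 fold change of 1.07 ± 0.18 (SE; edgeR adjusted p = 0.00498). OSGIN1, an oxidative stress target of NRF2, had 132, 127 and 118 CPM in strong-cloaked cells, against 27.1, 30.5 and 75.3 CPM in untransfected cells, a log2 fold change of 1.505 ± 0.36 (SE; edgeR adjusted p = 0.0186). BLVRB, biliverdin reductase B (chromosome 19, 40447765 to 40465840, minus strand), had 96.04, 97.3 and 95.4 CPM in strong-cloaked cells, against 55.8, 51.97 and 54.1 CPM in untransfected cells, a log2 fold change of 0.83 ± 0.15 (SE; edgeR adjusted p = 0.00675). Strong-cloaked libraries were the higher ones throughout. PIR, an iron-binding protein, rose by 0.88 ± 0.22, and TKT, transketolase of the pentose phosphate pathway, by 0.93 ± 0.27. The only decrease called in the list was that of GCLC, a subunit of the glutathione-making ligase picked out after its values were seen (-0.71 ± 0.2003, edgeR adjusted p = 0.0332), and it lost its call without S1 or S3. The heme oxygenase HMOX1 was at 35.4, 30.97 and 28.5 CPM in strong-cloaked cells, against 47.3, 40.8 and 30.4 CPM in untransfected cells (edgeR adjusted p = 0.163). FTL and BLVRB passed the test whichever of the 6 libraries was left out. OSGIN1 lost its call without S2, S3, U1 or U2 (edgeR adjusted p = 0.0522 to 0.0675), as did PIR without S2, S3, U2 or U3 (0.0509 to 0.0774) and TKT without S1, S2, S3, U1 or U2 (0.069 to 0.114). The calls of PIR and TKT ended with total-count scaling. Increases numbered 3 to 6 (lowest without S2 or U2) when 1 library was left out. The list of NRF2 targets and iron counted 4 higher and 3 lower genes with total-count scaling.

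Genes of cholesterol synthesis and uptake, which the factor SREBP2 controls, likewise counted increases and no decrease. Of 26 tested, 9 rose and 0 fell (median 0.403). DHCR7, the last enzyme of cholesterol synthesis (chromosome 11, 71428193 to 71452868, minus strand), had 164, 173 and 208 CPM in strong-cloaked cells, against 99.9, 96.03 and 91.9 CPM in untransfected cells, a log2 fold change of 0.92 ± 0.17 (SE; edgeR adjusted p = 0.00801). MSMO1, a sterol oxidase, had 184, 214 and 333 CPM in strong-cloaked cells, against 97.2, 91.6 and 127 CPM in untransfected cells, a log2 fold change of 1.21 ± 0.303 (SE; edgeR adjusted p = 0.0226). No untransfected library reached the strong-cloaked ones in either gene. FDFT1, squalene synthase, rose by 0.86 ± 0.21. DHCR7 passed the test whichever of the 6 libraries was left out. MSMO1 lost its call without S3, U1 or U2 (edgeR adjusted p = 0.0687 to 0.0932), as did FDFT1 without S2, S3 or U2 (0.0542 to 0.0786). The number of increases was 3 to 9 (lowest without S3 or U2) when 1 library was left out.

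Other lipid genes moved less uniformly. In fatty acid and triglyceride synthesis 2 of 19 rose and 1 fell. AGPAT2, an acyltransferase of triglyceride synthesis (chromosome 9, 136673143 to 136687423, minus strand), had 92.3, 97.9 and 83.7 CPM in strong-cloaked cells, against 38.1, 40.5 and 38.6 CPM in untransfected cells, a log2 fold change of 1.22 ± 0.14 (SE; edgeR adjusted p = 0.000788). The stearoyl-CoA desaturase SCD rose by 0.58 ± 0.101, and MLXIPL, the glucose-sensing factor ChREBP, was at -0.97 ± 0.29. Among PPAR targets and genes of fat burning 2 of 20 rose and 3 fell. PDK4, the kinase that spares glucose from oxidation, had 0.212, 0.298 and 0.155 CPM in strong-cloaked cells, against 0.693, 0.446 and 0.651 CPM in untransfected cells, a log2 fold change of -1.42 ± 0.41 (SE; edgeR adjusted p = 0.0352), whereas ANGPTL4, an inhibitor of lipoprotein lipase, rose by 0.78 ± 0.17 and ACADVL, a dehydrogenase of fatty acid oxidation, by 0.66 ± 0.13. Apolipoproteins counted 4 increases and 1 decrease among 14 (median 0.21; -0.07 with total-count scaling), with APOA4 at 1.499 ± 0.34. Of 19 genes of bile acid synthesis and sterol export 1 was called: ABCG8, a sterol exporter, which had 0.742, 0.518 and 1.02 CPM in strong-cloaked cells, against 3.85, 2.93 and 1.67 CPM in untransfected cells, a log2 fold change of -1.89 ± 0.42 (SE; edgeR adjusted p = 0.0141). AGPAT2, SCD and ACADVL passed the test whichever of the 6 libraries was left out. MLXIPL lost its call without S2, S3, U1 or U2 (edgeR adjusted p = 0.0881 to 0.13), as did PDK4 without each library in turn (0.0537 to 0.12), ANGPTL4 without S2 or U2 (0.0536 to 0.0595), APOA4 without S2 or U1 (0.0505 to 0.0508) and ABCG8 without S2 (0.0567). The calls of MLXIPL, PDK4 and APOA4 ended in a fit of the 2 groups alone and that of PDK4 without a low-count filter or with length and GC offsets. The PPAR list counted 2 higher and 5 lower genes with total-count scaling, 4 and 1 with length and GC offsets and 0 that were lower with 1 library left out. The apolipoprotein list counted 1 higher and 3 lower genes with total-count scaling, 1 and 1 with length and GC offsets and 0 to 1 (lowest without S2 or U1) that were higher with 1 library left out. Genes of bile acids and sterol export counted 0 higher and 5 lower genes with total-count scaling.

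Gluconeogenesis, the fasting pathway that makes glucose, held changes in both directions. Of 18 tested, 5 fell and 1 rose (median -0.36). G6PC1, the glucose-6-phosphatase of the last step (chromosome 17, 42900797 to 42913369, plus strand), had 6.82, 6.11 and 3.21 CPM in strong-cloaked cells, against 39.4, 42.5 and 46.5 CPM in untransfected cells, a log2 fold change of -2.99 ± 0.35 (SE; edgeR adjusted p = 0.000788). PCK1, phosphoenolpyruvate carboxykinase of the first committed step (chromosome 20, 57561080 to 57568112, plus strand), had 34.4, 38.2 and 36.5 CPM in strong-cloaked cells, against 7.04, 10.2 and 11.4 CPM in untransfected cells, a log2 fold change of 1.93 ± 0.34 (SE; edgeR adjusted p = 0.00617). These enzymes of one pathway thus moved in opposite directions, each with no overlap between the groups. PPARGC1A, the coactivator PGC-1alpha that induces both enzymes (chromosome 4, 23755041 to 23904089, minus strand), had 5.58, 4.33 and 4.48 CPM in strong-cloaked cells, against 10.5, 10.9 and 17.6 CPM in untransfected cells, a log2 fold change of -1.44 ± 0.29 (SE; edgeR adjusted p = 0.00975). IGFBP1, an insulin-repressed secreted binding protein (chromosome 7, 45888357 to 45893668, plus strand), had 449, 445 and 369.9 CPM in strong-cloaked cells, against 1221, 1485 and 1118 CPM in untransfected cells, a log2 fold change of -1.598 ± 0.23 (SE; edgeR adjusted p = 0.00237). PPARGC1B, a related coactivator, fell to a log2 fold change of -1.005 ± 0.27. G6PC1, PCK1, PPARGC1A and IGFBP1 passed the test whichever of the 6 libraries was left out. PPARGC1B lost its call without S2, S3, U2 or U3 (edgeR adjusted p = 0.0553 to 0.112). The call of PPARGC1B ended with length and GC offsets. The gluconeogenesis list counted 3 to 5 (lowest without S2, S3, U2 or U3) that were lower with 1 library left out.

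Glycolysis, the reverse route, counted 10 increases and 0 decreases among 29 genes that include the glucose transporters (median 0.48). ALDOA, an aldolase (chromosome 16, 30064164 to 30070457, plus strand), had 3571, 4873 and 3639 CPM in strong-cloaked cells, against 1813, 1589 and 1721 CPM in untransfected cells, a log2 fold change of 1.24 ± 0.24 (SE; edgeR adjusted p = 0.00844). PKM, pyruvate kinase, had 2176, 2672 and 2285 CPM in strong-cloaked cells, against 1295, 1089 and 1239 CPM in untransfected cells, a log2 fold change of 0.98 ± 0.25 (SE; edgeR adjusted p = 0.0225). GAPDH, the dehydrogenase often taken as a reference gene (chromosome 12, 6533927 to 6538374, plus strand), had 7935, 8956 and 7049.7 CPM in strong-cloaked cells, against 4542, 4942 and 3673 CPM in untransfected cells, a log2 fold change of 0.86 ± 0.15 (SE; edgeR adjusted p = 0.00608). HK1, hexokinase of the first step, rose by 0.89 ± 0.23. The liver glucose transporter SLC2A2 had 0, 0.188 and 0 CPM in strong-cloaked cells, against 1.24, 0.4004 and 0.441 CPM in untransfected cells (edgeR adjusted p = 0.0764). ALDOA and GAPDH passed the test whichever of the 6 libraries was left out. PKM lost its call without S2, S3, U1, U2 or U3 (edgeR adjusted p = 0.0519 to 0.076), as did HK1 without each library in turn (0.0539 to 0.0689). The call of PKM ended with total-count scaling. Increases numbered 2 to 6 (lowest without S2 or U3) when 1 library was left out. Hypoxia targets counted 2 increases among 20, which were the carbonic anhydrases CA9 (1.41 ± 0.24) and CA12 (1.31 ± 0.26). CA9 and CA12 passed the test whichever of the 6 libraries was left out. The glycolysis list counted 3 higher and 1 lower genes with total-count scaling. Hypoxia targets counted 5 higher and 0 lower genes with length and GC offsets.

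Liver transcription factors, which keep hepatocyte identity, counted 1 increase and 5 decreases among 20 (median -0.21). NR5A2, a nuclear receptor of bile acid genes (chromosome 1, 200027602 to 200177424, plus strand), had 3.55, 2.69 and 2.25 CPM in strong-cloaked cells, against 6.65, 5.78 and 9.34 CPM in untransfected cells, a log2 fold change of -1.36 ± 0.27 (SE; edgeR adjusted p = 0.00935). ONECUT1, the factor HNF6, had 1.03, 0.864 and 1.81 CPM in strong-cloaked cells, against 2.86, 4.404 and 4.88 CPM in untransfected cells, a log2 fold change of -1.71 ± 0.402 (SE; edgeR adjusted p = 0.0173). HNF4A, the central nuclear receptor of hepatocytes, had 195, 183 and 121 CPM in strong-cloaked cells, against 271, 267 and 221 CPM in untransfected cells, a log2 fold change of -0.61 ± 0.18 (SE; edgeR adjusted p = 0.039). Untransfected libraries were the higher ones in all of these. HHEX, a homeodomain factor of liver development, had a log2 fold change of -0.51 ± 0.0999. NR5A2 and HHEX passed the test whichever of the 6 libraries was left out. ONECUT1 lost its call without S1, S2 or U2 (edgeR adjusted p = 0.0536 to 0.0677), as did HNF4A without S2, S3, U1 or U2 (0.069 to 0.135). The call of HNF4A ended in a fit of the 2 groups alone. The number of decreases was 2 to 4 (lowest without S2 or U2) when 1 library was left out.

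Genes of hepatocyte products were called higher more often than lower. Of 28 tested, 5 rose and 1, IGFBP1 above, fell (median 0.31). ALB, albumin, was at 5131, 5179 and 6526 CPM in strong-cloaked cells, against 5395, 5723 and 6439 CPM in untransfected cells (edgeR adjusted p = 0.795), with overlapping groups. IGF2, a fetal growth factor, had 8210.0, 6722 and 8072 CPM in strong-cloaked cells, against 4633, 3659.5 and 3407 CPM in untransfected cells, a log2 fold change of 0.98 ± 0.19 (SE; edgeR adjusted p = 0.00874). ASGR1, a subunit of the asialoglycoprotein receptor of hepatocytes (chromosome 17, 7173431 to 7179564, minus strand), had 730.5, 690.2 and 746 CPM in strong-cloaked cells, against 415, 472 and 414 CPM in untransfected cells, a log2 fold change of 0.74 ± 0.15 (SE; edgeR adjusted p = 0.0116). SERPINA1, the protease inhibitor alpha-1-antitrypsin, rose by 0.63 ± 0.15; VTN, vitronectin, by 0.704 ± 0.17; and RBP4, the retinol carrier, by 0.67 ± 0.16. Of 21 acute phase genes 2 rose, LBP, which binds lipopolysaccharide (1.64 ± 0.48), and SERPINA3, an inhibitor of chymotrypsin (0.98 ± 0.22). Of 24 complement genes 1 was called, C5, which fell at -0.87 ± 0.18. IGF2, ASGR1 and C5 passed the test whichever of the 6 libraries was left out. SERPINA1 lost its call without S2, U1 or U2 (edgeR adjusted p = 0.0569 to 0.0746), as did VTN without S2, S3 or U1 (0.0565 to 0.0603), RBP4 without S3, U1 or U2 (0.0523 to 0.0666), LBP without each library in turn (0.0588 to 0.144) and SERPINA3 without S3 or U2 (0.0519 to 0.0586). The call of LBP ended with total-count scaling or without a low-count filter. The list of hepatocyte products counted 5 higher and 3 lower genes with total-count scaling and 2 to 5 (lowest without U1) that were higher with 1 library left out. Acute phase genes counted 1 higher and 5 lower genes with total-count scaling and 4 and 0 with length and GC offsets. Complement genes counted 0 higher and 3 lower genes with total-count scaling and 4 and 1 with length and GC offsets.

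Drug-metabolising enzymes changed in both directions, with 6 increases and 3 decreases among 20 (median 0.22; -0.05 with total-count scaling). UGT1A1, the enzyme that conjugates bilirubin (chromosome 2, 233760248 to 233773299, plus strand), had 636, 754 and 923 CPM in strong-cloaked cells, against 150.0, 111 and 201 CPM in untransfected cells, a log2 fold change of 2.32 ± 0.32 (SE; edgeR adjusted p = 0.00228). CYP1A2, an arylamine-oxidising cytochrome P450, had 1.404, 1.05 and 0.884 CPM in strong-cloaked cells, against 0.243, 0.515 and 0.256 CPM in untransfected cells, a log2 fold change of 1.72 ± 0.38 (SE; edgeR adjusted p = 0.0143). CYP3A7, the fetal cytochrome P450 of liver, had 0.397, 0.0942 and 0.264 CPM in strong-cloaked cells, against 1.495, 1.01 and 1.44 CPM in untransfected cells, a log2 fold change of -2.37 ± 0.63 (SE; edgeR adjusted p = 0.0271). The increases and the decrease were each seen in all libraries. CYP3A5 had a log2 fold change of -1.19 ± 0.33, and POR, the reductase that gives electrons to these enzymes, of 1.22 ± 0.33. UGT1A1 shares its last exons with the other genes of its locus, so its reads may have been assigned among them. UGT1A1 passed the test whichever of the 6 libraries was left out. CYP1A2 lost its call without U1 (edgeR adjusted p = 0.052), as did CYP3A7 without S2, S3, U1, U2 or U3 (0.0536 to 0.0878), CYP3A5 without S1, S2, U1, U2 or U3 (0.0528 to 0.101) and POR without S1, S2, S3, U1 or U3 (0.0564 to 0.0933). The list of drug metabolism counted 3 to 5 (lowest without U1) that were higher with 1 library left out and 1 to 2 (lowest without S2, U1, U2 or U3) that were lower with 1 library left out.

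Sensors of foreign RNA and their signalling proteins were more often lower. Of 25 tested, 7 fell and 1 rose (median -0.37; -0.19 with offsets for transcript length and GC content). DDX58, the gene of the sensor RIG-I, which binds triphosphate RNA ends, had 0.953, 0.707 and 0.558 CPM in strong-cloaked cells, against 2.504, 2.76 and 1.32 CPM in untransfected cells, a log2 fold change of -1.57 ± 0.44 (SE; edgeR adjusted p = 0.0336). DHX58, the relative LGP2 that has no signalling domain (chromosome 17, 42101404 to 42112733, minus strand), had 4.03, 4.07 and 2.51 CPM in strong-cloaked cells, against 0.681, 1.34 and 0.825 CPM in untransfected cells, a log2 fold change of 1.896 ± 0.297 (SE; edgeR adjusted p = 0.00338). IKBKE, a kinase that activates the interferon factor IRF3, had 2.75, 2.84 and 1.54 CPM in strong-cloaked cells, against 6.63, 5.95 and 3.19 CPM in untransfected cells, a log2 fold change of -1.14 ± 0.32 (SE; edgeR adjusted p = 0.0336). DDX58 and IKBKE were lower and DHX58 higher in every strong-cloaked library. TRIM25, the ubiquitin ligase that helps RIG-I, had a log2 fold change of -0.88 ± 0.23, and IFNAR1, a chain of the interferon receptor, of -0.85 ± 0.26. The interferon genes IFNB1 and IFNL1 had 0 counts in every strong-cloaked library, against at most 4 and 0 counts in any untransfected library, and a count of 0 allows up to 3 counts per library. DHX58 passed the test whichever of the 6 libraries was left out. DDX58 lost its call without S1, S2, S3, U1 or U2 (edgeR adjusted p = 0.0529 to 0.119), as did IKBKE without S1, S2, S3, U1 or U2 (0.0577 to 0.122), TRIM25 without S2, S3, U1 or U2 (0.0582 to 0.0945) and IFNAR1 without each library in turn (0.0607 to 0.151). The calls of DDX58 and IFNAR1 ended with length and GC offsets, that of IKBKE in a fit of the 2 groups alone and that of IFNAR1 without a low-count filter. The number of decreases was 0 to 5 (lowest without S2, S3 or U2) when 1 library was left out. Genes of RNA sensing and signalling counted 2 higher and 3 lower genes with length and GC offsets.

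Interferon-stimulated genes split, with 9 increases and 8 decreases among 40. ISG15, the ubiquitin-like modifier (chromosome 1, 1001138 to 1014540, plus strand), had 62.97, 62.2 and 62.4 CPM in strong-cloaked cells, against 28.5, 26.01 and 26.8 CPM in untransfected cells, a log2 fold change of 1.21 ± 0.16 (SE; edgeR adjusted p = 0.0014). MX1, an antiviral GTPase, had 2.26, 1.04 and 1.21 CPM in strong-cloaked cells, against 3.83, 4.06 and 3.61 CPM in untransfected cells, a log2 fold change of -1.35 ± 0.35 (SE; edgeR adjusted p = 0.0249). IFIT1, which binds RNA without a methylated cap, had 1.44, 0.989 and 0.667 CPM in strong-cloaked cells, against 2.77, 2.35 and 2.37 CPM in untransfected cells, a log2 fold change of -1.27 ± 0.32 (SE; edgeR adjusted p = 0.0233). ISG15 was higher, and MX1 and IFIT1 were lower, in all 3 strong-cloaked libraries. PARP9 (-1.06 ± 0.33) and its partner DTX3L (-1.06 ± 0.27), which modify proteins with ADP-ribose and ubiquitin, also fell. ADAR, the editor of double-stranded RNA, was at 156, 166 and 146 CPM in strong-cloaked cells, against 161, 143 and 149 CPM in untransfected cells (edgeR adjusted p = 0.761), with overlapping groups. RSAD2 and CXCL10 had 0 counts in every strong-cloaked library, against at most 0 and 4 counts in any untransfected one. The list's median was -0.32, or -0.03 with length and GC offsets. ISG15 passed the test whichever of the 6 libraries was left out. MX1 lost its call without S2, S3, U1 or U2 (edgeR adjusted p = 0.0556 to 0.0941), as did IFIT1 without S2, S3, U1 or U2 (0.0545 to 0.0911), PARP9 without S2, S3, U1, U2 or U3 (0.0557 to 0.166) and DTX3L without S1, S2, S3, U2 or U3 (0.0514 to 0.0872). The call of PARP9 ended without a low-count filter, in a fit of the 2 groups alone or with length and GC offsets. The increases numbered 3 to 6 (lowest without U2) and the decreases 0 to 4 (lowest without S2 or U2) when 1 library was left out. Interferon-stimulated genes counted 5 higher and 10 lower genes with total-count scaling and 5 and 7 with length and GC offsets.

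Targets of the inflammatory factor NF-kappaB counted 5 increases and 1 decrease among 26 (median 0.39). CXCL8, the neutrophil chemokine interleukin-8 (chromosome 4, 73740506 to 73743716, plus strand), had 9.24, 11.6 and 9.99 CPM in strong-cloaked cells, against 3.33, 4.03 and 3.33 CPM in untransfected cells, a log2 fold change of 1.53 ± 0.27 (SE; edgeR adjusted p = 0.00632). TNFAIP3, the feedback inhibitor A20 (chromosome 6, 137867188 to 137883312, plus strand), had 50.9, 77.7 and 90.5 CPM in strong-cloaked cells, against 31.02, 41.03 and 33.9 CPM in untransfected cells, a log2 fold change of 1.05 ± 0.21 (SE; edgeR adjusted p = 0.0104). IL32, a cytokine of epithelial cells (chromosome 16, 3065297 to 3082192, plus strand), had 471, 480.1 and 493 CPM in strong-cloaked cells, against 247, 225 and 232 CPM in untransfected cells, a log2 fold change of 1.04 ± 0.15 (SE; edgeR adjusted p = 0.00249). The groups did not overlap in any of them. BIRC3, an inhibitor of apoptosis, rose by 1.298 ± 0.402 and RELB, a subunit of NF-kappaB, by 0.65 ± 0.15. The only decrease called in the list was that of NFKB1, the p105 precursor, picked out after its values were seen (-0.56 ± 0.14, edgeR adjusted p = 0.0207), and it lost its call without S1, S2, S3, U1 or U2. Genes of antigen presentation counted 4 increases and 1 decrease among 23; CD74, the invariant chain of class II molecules, rose by 0.72 ± 0.15, and NLRC5, the activator of class I genes, had a log2 fold change of -0.91 ± 0.27. CXCL8, TNFAIP3, IL32 and CD74 passed the test whichever of the 6 libraries was left out. BIRC3 lost its call without each library in turn (edgeR adjusted p = 0.0646 to 0.153), as did RELB without S1, S3, U1 or U2 (0.0515 to 0.0553) and NLRC5 without each library in turn (0.0536 to 0.122). The calls of BIRC3 and RELB ended with total-count scaling and that of BIRC3 without a low-count filter. The NF-kappaB list counted 3 higher and 1 lower genes with total-count scaling and 3 to 4 (lowest without S1, S3, U1 or U2) that were higher with 1 library left out. Those of antigen presentation counted 2 higher and 2 lower genes with total-count scaling and 1 to 2 (lowest without S2, S3, U1 or U2) that were higher with 1 library left out.

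Cytosolic ribosomal proteins had a larger share of called members (76.2%) than the other lists examined with TMM scaling, though not with total-count scaling, and each gene changed little. Of 42 tested, 32 rose and 0 fell (median 0.51), and strong-cloaked libraries were above all untransfected ones for 39, against 19% of all genes. RPL35 (chromosome 9, 124857880 to 124861981, minus strand) had 1039.7, 944 and 964 CPM in strong-cloaked cells, against 665, 588 and 582 CPM in untransfected cells, a log2 fold change of 0.68 ± 0.15 (SE; edgeR adjusted p = 0.0129). RPS19 (chromosome 19, 41859918 to 41872926, plus strand) had 1770.0, 1721 and 1847 CPM in strong-cloaked cells, against 1214, 1108 and 1123 CPM in untransfected cells, a log2 fold change of 0.63 ± 0.13 (SE; edgeR adjusted p = 0.0123). The number of increases was 3 to 15 (lowest without S3 or U2) when 1 library was left out, and with total-count scaling the median was 0.24. Ribosomal protein genes have many processed pseudogenes, which can draw or lose reads. Nuclear-encoded subunits of the respiratory chain counted 15 increases and 0 decreases among 36 (median 0.39), a number that was 0 to 8 (lowest without S3 or U2) when 1 library was left out. ATP5F1D, the delta subunit of ATP synthase, had 68.7, 68.1 and 76.2 CPM in strong-cloaked cells, against 44.3, 23.3 and 17.5 CPM in untransfected cells, a log2 fold change of 1.32 ± 0.31 (SE; edgeR adjusted p = 0.0176). COX8A, a subunit of cytochrome oxidase, rose by 0.68 ± 0.15. RPL35 and RPS19 passed the test whichever of the 6 libraries was left out. ATP5F1D lost its call without S3 or U2 (edgeR adjusted p = 0.059 to 0.0676), as did COX8A without S3 or U2 (0.0579 to 0.0584). The call of COX8A ended with length and GC offsets. Cytosolic ribosomal proteins counted 10 higher and 1 lower genes with total-count scaling. Nuclear-encoded respiratory chain subunits counted 4 higher and 0 lower genes with total-count scaling.

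Messenger RNAs of the mitochondrial genome gave no increase. Of 13 tested, 0 rose and 3 fell (median -0.1002). MT-CO3, a subunit of cytochrome oxidase, had 1038, 1088 and 1172 CPM in strong-cloaked cells, against 1662, 1314 and 1495 CPM in untransfected cells, a log2 fold change of -0.44 ± 0.102 (SE; edgeR adjusted p = 0.0171). MT-ND4, a subunit of complex I, had 0.132, 0.157 and 0.186 CPM in strong-cloaked cells, against 0.109, 0.126 and 13.4 CPM in untransfected cells, a log2 fold change of -4.83 ± 1.42 (SE; edgeR adjusted p = 0.0399). Its high value came from U3 alone, and without U3 its log2 fold change was 0.41 with an adjusted p of 0.724 by edgeR. In all 6 libraries MT-ND4 was far below MT-CO3, and these counts may not give its level. Why so few reads were assigned to it was not tested. MT-ATP8 overlaps MT-ATP6, and its call (-0.34 ± 0.104) may reflect how shared reads were counted. MT-CO3 lost its call without S1, S2 or U1 (edgeR adjusted p = 0.0569 to 0.0604), as did MT-ND4 without S1, S2, S3 or U3 (0.109 to 0.724) and MT-ATP8 without S1, S2, S3, U1 or U3 (0.0931 to 0.123). The calls of MT-ND4 and MT-ATP8 ended without a low-count filter or in a fit of the 2 groups alone. Mitochondrial mRNAs counted 0 higher and 5 lower genes with total-count scaling and 0 to 3 (lowest without S1 or S2) that were lower with 1 library left out.

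Factors of translation counted 5 increases and 2 decreases among 32. EIF5, a GTPase activator of start codon selection, had 20.2, 17.7 and 13.3 CPM in strong-cloaked cells, against 72.4, 63.01 and 50.9 CPM in untransfected cells, a log2 fold change of -1.86 ± 0.399 (SE; edgeR adjusted p = 0.0131). EIF1, its partner in start codon selection (chromosome 17, 41688885 to 41692668, plus strand), had 1038, 1140.4 and 1191 CPM in strong-cloaked cells, against 653, 701 and 649 CPM in untransfected cells, a log2 fold change of 0.75 ± 0.15 (SE; edgeR adjusted p = 0.00927). EIF5 was lower and EIF1 higher in every strong-cloaked library. EIF4EBP1, the repressor of cap-dependent translation, rose by 0.65 ± 0.14, and EEF1D and EEF1B2, exchange factors of elongation, by 0.66 ± 0.14 and 0.62 ± 0.13. Among 37 genes of mRNA decay 2 rose and 3 fell. XRN1, the exonuclease that degrades decapped mRNA, had 3.71, 3.31 and 2.93 CPM in strong-cloaked cells, against 6.64, 7.24 and 8.62 CPM in untransfected cells, a log2 fold change of -1.18 ± 0.33 (SE; edgeR adjusted p = 0.0318). ZFP36L1, a protein that marks AU-rich mRNAs for decay (chromosome 14, 68787660 to 68796253, minus strand), had 114, 130.4 and 168 CPM in strong-cloaked cells, against 57.8, 62.4 and 75.5 CPM in untransfected cells, a log2 fold change of 1.08 ± 0.204 (SE; edgeR adjusted p = 0.00833). PARN, a deadenylase, was at -0.77 ± 0.18. EIF1, EIF4EBP1, EEF1D, EEF1B2 and ZFP36L1 passed the test whichever of the 6 libraries was left out. EIF5 lost its call without S3 (edgeR adjusted p = 0.0585), as did XRN1 without each library in turn (0.057 to 0.109) and PARN without S2, S3 or U2 (0.055 to 0.0666). The call of XRN1 ended with length and GC offsets. Genes of translation counted 4 higher and 4 lower genes with total-count scaling and 10 and 2 with length and GC offsets. Those of mRNA decay counted 1 higher and 10 lower genes with total-count scaling and 0 to 2 (lowest without S2 or S3) that were lower with 1 library left out.

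Along the route that particles take, lysosomal genes counted 9 increases and 0 decreases among 38 (median 0.296). CTSD, the protease cathepsin D, had 1325, 1354 and 1554 CPM in strong-cloaked cells, against 795, 787 and 839 CPM in untransfected cells, a log2 fold change of 0.81 ± 0.17 (SE; edgeR adjusted p = 0.0126). PSAP, the precursor of the saposins that help degrade sphingolipids (chromosome 10, 71816298 to 71851375, minus strand), had 1058, 1270.2 and 1278 CPM in strong-cloaked cells, against 759, 733 and 776 CPM in untransfected cells, a log2 fold change of 0.67 ± 0.14 (SE; edgeR adjusted p = 0.0114). TFE3, a factor that switches on lysosomal genes, had 80.95, 92.8 and 112 CPM in strong-cloaked cells, against 46.0000, 37.3 and 46.1 CPM in untransfected cells, a log2 fold change of 1.14 ± 0.24 (SE; edgeR adjusted p = 0.0127). All 3 were above every untransfected library. Genes of endocytosis and endosomal sorting counted 8 increases and 2 decreases among 40 (median 0.04). SCARB1, the receptor for high-density lipoprotein, rose by 0.804 ± 0.19 and CLTB, a clathrin light chain, by 0.74 ± 0.17, whereas the ESCRT subunits VPS4B (-1.38 ± 0.34) and TSG101 (-0.82 ± 0.18) fell. PSAP passed the test whichever of the 6 libraries was left out. CTSD lost its call without S3 (edgeR adjusted p = 0.0518), as did TFE3 without S3 or U2 (0.0503 to 0.0521), SCARB1 without S2 or U1 (0.0507 to 0.0544), CLTB without S3 or U2 (0.0613 to 0.0666), VPS4B without S2, S3 or U2 (0.0509 to 0.0801) and TSG101 without S2 or S3 (0.056 to 0.0643). The increases of the lysosomal list numbered 1 to 7 (lowest without S3) when 1 library was left out. Lysosomal genes counted 3 higher and 2 lower genes with total-count scaling. Genes of endocytosis counted 6 higher and 8 lower genes with total-count scaling and 3 to 7 (lowest without S3) that were higher with 1 library left out.

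Genes of DNA replication counted decreases and no increase. Of 39 tested, 16 fell and 0 rose (median -0.45; -0.35 with length and GC offsets), and 22 had all strong-cloaked libraries below all untransfected ones, against 21.2% of all genes. CHAF1A, a subunit of the chromatin assembly factor (chromosome 19, 4402662 to 4445018, plus strand), had 23.8, 21.97 and 16.9 CPM in strong-cloaked cells, against 70.7, 56.8 and 51.2 CPM in untransfected cells, a log2 fold change of -1.51 ± 0.24 (SE; edgeR adjusted p = 0.00369). GINS3, a subunit of the replicative helicase (chromosome 16, 58295080 to 58406144, plus strand), had 10.2, 9.23 and 9.91 CPM in strong-cloaked cells, against 26.98, 22.1 and 17.1 CPM in untransfected cells, a log2 fold change of -1.17 ± 0.21 (SE; edgeR adjusted p = 0.00712). UHRF1, which keeps DNA methylation at the fork (chromosome 19, 4903080 to 4962154, plus strand), had 47.98, 53.7 and 48.1 CPM in strong-cloaked cells, against 115, 103 and 88.4 CPM in untransfected cells, a log2 fold change of -1.03 ± 0.16 (SE; edgeR adjusted p = 0.00308). Untransfected libraries were the higher ones in each. POLE2, a subunit of DNA polymerase epsilon, fell to -1.11 ± 0.28 and GINS4 to -0.77 ± 0.16 on the log2 scale. Uncalled members included PCNA, the sliding clamp, at 324, 339 and 306 CPM in strong-cloaked cells, against 380.3, 349 and 425 CPM in untransfected cells (edgeR adjusted p = 0.12), and MCM7, a helicase subunit, at 286, 404 and 179 CPM in strong-cloaked cells, against 401, 236 and 214 CPM in untransfected cells (edgeR adjusted p = 0.958). CHAF1A, GINS3, UHRF1 and GINS4 passed the test whichever of the 6 libraries was left out. POLE2 lost its call without S1, S2, S3, U1 or U2 (edgeR adjusted p = 0.057 to 0.0829). The decreases numbered 6 to 16 (lowest without S3) when 1 library was left out. DNA replication genes counted 0 higher and 27 lower genes with total-count scaling.

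Of 33 mitotic genes, 3 rose and 3 fell (median -0.14; 0.05 with length and GC offsets). PTTG1, securin, had 324, 359 and 322 CPM in strong-cloaked cells, against 202, 216 and 104 CPM in untransfected cells, a log2 fold change of 0.95 ± 0.22 (SE; edgeR adjusted p = 0.0161). The spindle motors KIF15 (-1.39 ± 0.42) and KIF11 (-1.22 ± 0.36) fell. Among 26 cyclins and inhibitors of the G1 phase 4 rose and 2 fell; CDKN2D, the inhibitor p19, had 20.1, 20.97 and 26.6 CPM in strong-cloaked cells, against 8.75, 7.402 and 10.2 CPM in untransfected cells, a log2 fold change of 1.36 ± 0.25 (SE; edgeR adjusted p = 0.00713), and RBL1, the retinoblastoma relative p107, was at -1.49 ± 0.39. Histone genes, whose messages mostly lack a poly(A) tail and were read here after poly(A) selection, counted 6 increases and 0 decreases among 17 (median 0.996), and strong-cloaked libraries were above all untransfected ones for 11, against 19% of all genes. H2BC21 had 4.701, 5.97 and 11.1 CPM in strong-cloaked cells, against 1.34, 2.29 and 1.79 CPM in untransfected cells, a log2 fold change of 2.01 ± 0.47 (SE; edgeR adjusted p = 0.0169). CDKN2D passed the test whichever of the 6 libraries was left out. PTTG1 lost its call without S2 (edgeR adjusted p = 0.0531), as did KIF15 without S2, S3, U1, U2 or U3 (0.0678 to 0.151), KIF11 without each library in turn (0.0578 to 0.118), RBL1 without S1, S2, S3, U1 or U2 (0.0582 to 0.0951) and H2BC21 without S3 or U1 (0.0591 to 0.0694). The calls of KIF15 and KIF11 ended without a low-count filter and that of KIF15 with length and GC offsets. The increases of the histone list numbered 1 to 5 (lowest without S3 or U1) when 1 library was left out. Mitotic genes counted 1 higher and 7 lower genes with total-count scaling, 7 and 2 with length and GC offsets, 0 to 2 (lowest without S2) that were higher with 1 library left out and 0 to 1 (lowest without S2, S3 or U1) that were lower with 1 library left out. G1 cyclins and CDK inhibitors counted 2 higher and 3 lower genes with total-count scaling and 2 to 3 (lowest without S2, S3, U1 or U2) that were higher with 1 library left out. The histone list counted 3 higher and 0 lower genes with total-count scaling.

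Targets of YAP and of the actin-sensing factor SRF counted 8 increases and 1 decrease among 21 (median 0.43). Besides CCN1, TAGLN, the actin-binding transgelin, had 11.1, 13.8 and 12.4 CPM in strong-cloaked cells, against 6.32, 6.21 and 6.22 CPM in untransfected cells, a log2 fold change of 0.99 ± 0.24 (SE; edgeR adjusted p = 0.0206). FHL2, a LIM-domain coactivator (chromosome 2, 105357712 to 105438513, minus strand), had 66.2, 81.6 and 51.7 CPM in strong-cloaked cells, against 28.5, 40.5 and 32.4 CPM in untransfected cells, a log2 fold change of 0.98 ± 0.18 (SE; edgeR adjusted p = 0.00732). AJUBA, a LIM protein of cell junctions, went the other way at -1.12 ± 0.26. In TGF-beta, activin and BMP signalling 6 of 28 rose and 5 fell (median 0.04). FST, follistatin, the secreted inhibitor of activins (chromosome 5, 53480409 to 53487134, plus strand), had 9.76, 12.3 and 13.9 CPM in strong-cloaked cells, against 51.1, 30.1 and 80.6 CPM in untransfected cells, a log2 fold change of -2.17 ± 0.302 (SE; edgeR adjusted p = 0.002). EDN1, the vasoconstrictor endothelin-1, was at -2.63 ± 0.81, SKIL, a SMAD repressor, at -1.59 ± 0.39 and SMAD6, an inhibitor of BMP signals, at -1.54 ± 0.41. FHL2 and FST passed the test whichever of the 6 libraries was left out. TAGLN lost its call without S2, S3, U1 or U2 (edgeR adjusted p = 0.0546 to 0.0676), as did AJUBA without S2 or S3 (0.0577 to 0.0643), EDN1 without each library in turn (0.0749 to 0.153), SKIL without S2, S3 or U3 (0.0657 to 0.0764) and SMAD6 without S1, S2, S3 or U1 (0.0604 to 0.085). The call of EDN1 ended without a low-count filter. YAP and SRF targets counted 7 higher and 3 lower genes with total-count scaling and 4 to 8 (lowest without S3 or U2) that were higher with 1 library left out. TGF-beta, activin and BMP genes counted 1 to 4 (lowest without S2 or S3) that were lower with 1 library left out.

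Of 16 beta-catenin targets, 1 rose and 2 fell; RNF43, a ligase that removes WNT receptors, rose by 0.77 ± 0.11, and LGR5, its partner receptor, was at -1.46 ± 0.35. Circadian clock genes counted 4 increases and 2 decreases among 19. NR1D1, the repressor REV-ERB alpha, had 65.3, 81.1 and 122 CPM in strong-cloaked cells, against 21.4, 23.7 and 29.7 CPM in untransfected cells, a log2 fold change of 1.84 ± 0.44 (SE; edgeR adjusted p = 0.0198). CLOCK, the activator of the clock, had 2.97, 2.07 and 2.404 CPM in strong-cloaked cells, against 4.81, 5.80000 and 12.3 CPM in untransfected cells, a log2 fold change of -1.62 ± 0.43 (SE; edgeR adjusted p = 0.0271). NR1D1 was higher and CLOCK lower in all strong-cloaked libraries, at the single time measured. NFIL3, a repressor of clock output, rose by 1.03 ± 0.21 and the repressor CRY2 by 0.85 ± 0.17. Of 30 apoptosis genes 6 rose and 1 fell, and MCL1, an inhibitor of cell death, was at 0.902 ± 0.19. Among long noncoding RNAs of known function, H19, the imprinted partner of IGF2 (chromosome 11, 1995176 to 2001470, minus strand), had 107, 123 and 88.1 CPM in strong-cloaked cells, against 44.95, 59.8 and 46.8 CPM in untransfected cells, a log2 fold change of 1.07 ± 0.16 (SE; edgeR adjusted p = 0.00268). RNF43, NFIL3, CRY2 and H19 passed the test whichever of the 6 libraries was left out. LGR5 lost its call without S2, S3 or U3 (edgeR adjusted p = 0.0524 to 0.0728), as did NR1D1 without S3, U1 or U2 (0.0635 to 0.0725), CLOCK without S1, S2, S3 or U3 (0.0526 to 0.101) and MCL1 without S3 (0.054). Beta-catenin targets counted 1 higher and 4 lower genes with total-count scaling. Clock genes counted 2 to 4 (lowest without S3, U1 or U2) that were higher with 1 library left out. Apoptosis genes counted 2 higher and 3 lower genes with total-count scaling and 2 to 3 (lowest without S3, U1 or U2) that were higher with 1 library left out.

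Aminoacyl-tRNA synthetases counted 2 increases and 2 decreases among 20, and proteasome subunits 3 and 1 among 32. Their medians were -0.101 and 0.01, near the median of all tested genes (-0.05). Aminoacyl-tRNA synthetases counted 0 higher and 5 lower genes with total-count scaling. Proteasome subunits counted 0 higher and 6 lower genes with total-count scaling and 0 to 1 (lowest without S1, S2, S3, U2 or U3) that were higher with 1 library left out. Of all 18380 genes, 652 were higher and 2901 lower with total-count scaling.

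Markers of other cell types were called in 20% (leukocyte), 16.7% (fibroblast and endothelial) and 30% (other epithelial) of tested members, against 15.1% of all genes. Of 10 leukocyte markers tested 2 rose and 0 fell, and their summed level was 1067 to 1185 CPM in strong-cloaked cells and 1150.0 to 1572 CPM in untransfected cells. Strong-cloaked libraries lay above all untransfected ones for 4 of them and below for 1, against 19% and 21.2% of all genes. The 2 members of the list too low to test, PTPRC and MS4A1, had 0 counts in all 6 libraries. The increases were CD68, a lysosomal protein of macrophages, and LCP1, an actin bundler. Of 12 fibroblast and endothelial markers 1 rose, TIE1, and 1 fell, PDGFRB, and the sum was 33.9 to 79.9 CPM in strong-cloaked cells and 29.5 to 55.4 CPM in untransfected cells. Of 10 other epithelial markers 2 rose and 1 fell, with a sum of 332 to 497 CPM in strong-cloaked cells and 314 to 369.5 CPM in untransfected cells. KRT17, a keratin of stressed epithelia, had 14.7, 18.4 and 9.97 CPM in strong-cloaked cells, against 3.53, 5.42 and 2.904 CPM in untransfected cells, a log2 fold change of 1.86 ± 0.32 (SE; edgeR adjusted p = 0.00545). The part of these markers in other results was not tested. TIE1, PDGFRB and KRT17 passed the test whichever of the 6 libraries was left out. CD68 lost its call without S2 (edgeR adjusted p = 0.0531), as did LCP1 without S2, S3, U1, U2 or U3 (0.0806 to 0.165). The calls of CD68 and LCP1 ended in a fit of the 2 groups alone and that of LCP1 with total-count scaling or without a low-count filter.

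Transcript length and GC content moved with the comparison. In the quartile of genes with the shortest transcripts (up to 1966 nt), 12.4% rose and 2.62% fell, with a median log2 fold change of 0.21. In that with the longest (4982 nt or more), 4.18% rose and 9.58% fell, with a median of -0.25. In the quartile of lowest GC content (up to 42.79%), 2.4% rose and 11.1% fell, and in that of highest GC content (56.93% or more), 13.1% rose and 3.39% fell. The medians of these GC quartiles were -0.37 and 0.21. Called increases had a median length of 2339 nt and a GC content of 55.1%, and called decreases 4027 nt and 44.9%. With offsets for both properties in each library, 1727 genes were higher and 1167 lower. Ribosomal protein transcripts were short (list median 1849 nt) and those of RNA sensing long (4284 nt). With the offsets, 29 of 42 ribosomal protein genes rose (median 0.46, against 0.51 without them), and of 25 RNA sensing genes 3 fell and 2 rose, against 7 and 1 without them.

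**Figure D3:**
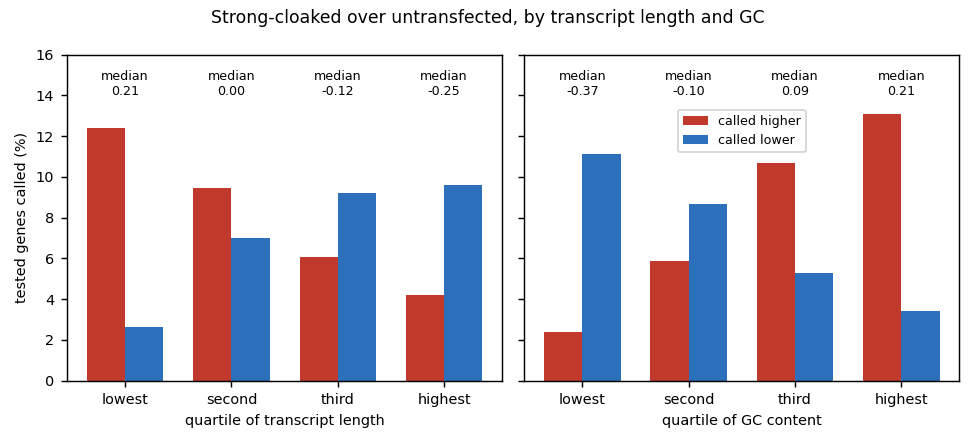
Share of tested genes called higher (red) and lower (blue) in strong-cloaked cells, in percent, by quartile of transcript length (left) and of GC content (right) over 18286 annotated genes, with the median log2 fold change above each pair of bars. Increases make up 12.4% of the shortest and 4.18% of the longest quartile, and 2.4% of the lowest and 13.1% of the highest GC quartile.

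The strong-cloaked response was also set directly against the other transfected groups in the same fit. Against non-cloaked cells, 0 of 18380 genes (0%) were called by edgeR, 663 had an unadjusted p below 0.05, and DESeq2 called 15, of which 7 were higher and 8 lower. Against the mean of the non-cloaked, weak-cloaked and medium-cloaked groups, 0 genes (0%) were called, 574 had an unadjusted p below 0.05 (0 and 618 without weak-cloaked replicate 1), and DESeq2 called 14, of which 4 were higher and 10 lower. Without 1 library the numbers of called genes were 0 to 1 and 0 to 3 (3 without S1). The 663 and 574 genes are each less than a share of 0.05 of the 18380 tested, the share that would arise if no gene differed. The 95% interval around a log2 fold change extended 0.62 (against non-cloaked cells) and 0.51 (against the other groups' mean) to either side at the median gene. These intervals are not adjusted for the number of genes tested. Differences well beyond them could therefore also go uncalled, as the values below show.

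The genes of smallest p in these comparisons are given as values, since none passed the test. Where libraries of the compared groups lay apart in them, this follows in part from that choice. CALCRL-AS1, the antisense transcript described above, came first in both: it had 0.0397, 0.0471 and 0.03102 CPM in strong-cloaked cells, against 0.454, 0.534 and 1.62 in non-cloaked, 1.15, 0.613 and 0.291 in weak-cloaked, 0.6596, 0.888 and 1.23 in medium-cloaked and 0.973, 2.402 and 0.976 in untransfected cells. Its log2 fold change was -4.401 ± 0.73 against non-cloaked cells (SE; edgeR adjusted p = 0.51) and -4.32 ± 0.68 against the mean of the other transfected groups (SE; edgeR adjusted p = 0.41). All 3 strong-cloaked libraries were below every other library of the series for this transcript. SPAG1 had 0.146, 0.377 and 0.233 CPM in strong-cloaked cells, against 0.316, 0.178 and 0.307 in non-cloaked, 16.2, 9.67 and 8.68 in weak-cloaked, 0.188, 0.219 and 0.338 in medium-cloaked and 10.8, 13.8 and 23.6 in untransfected cells. The weak-cloaked libraries overlapped the untransfected ones, and all libraries of the other transfected groups were below 1 CPM. RNF123, a ubiquitin ligase, had 24.5, 23.7 and 13.2 CPM in strong-cloaked cells, against 63.6, 61.7 and 66.2 CPM in non-cloaked cells, with a log2 fold change of -1.64 ± 0.29 (SE; edgeR adjusted p = 0.51). MVB12A, a subunit of ESCRT-I, had 24.5, 32.8 and 32.8 CPM in strong-cloaked cells, against 4.87, 7.28 and 5.85 CPM in non-cloaked cells, with a log2 fold change of 2.32 ± 0.42 (SE; edgeR adjusted p = 0.51). For both genes these 2 groups did not overlap, which goes with their choice by smallest p. Medium-cloaked libraries had 55.8, 23.1 and 36.2 CPM of RNF123 and 10.3, 33.8 and 29.5 CPM of MVB12A, and so reached the strong-cloaked range in both. ARHGEF3, an exchange factor for small GTPases, had 5.88, 10.8 and 4.901 CPM in strong-cloaked cells, against 21.1, 12.3 and 19.5 in non-cloaked, 19.8, 15.3 and 12.2 in weak-cloaked, 21.98, 18.5 and 19.5 in medium-cloaked and 19.4, 24.7 and 27.5 in untransfected cells, and all 3 strong-cloaked libraries were below every other library. HMGN5, a nucleosome-binding protein, had 5.15, 2.78 and 0.233 CPM in strong-cloaked cells, against 0.248, 0.164 and 0.171 in non-cloaked, 0.237, 0.451 and 0.4799 in weak-cloaked, 0.242, 0.547 and 0.675 in medium-cloaked and 0.0851, 0.263 and 0.418 in untransfected cells. Its high values came from S1 and S2, whereas S3 lay within the range of the other groups.

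Values of 3 genes that differed from untransfected cells are set beside those of the other transfected groups. G6PC1 had 6.82, 6.11 and 3.21 CPM in strong-cloaked cells, against 7.87, 6.33 and 3.52 in non-cloaked, 4.24, 2.85 and 5.74 in weak-cloaked and 5.01, 3.64 and 4.65 in medium-cloaked cells, and the strong-cloaked range overlapped all 3 of the others. AREG had 9.32, 9.17 and 9.93 CPM in strong-cloaked cells, against 10.1, 10.3 and 11.9 in non-cloaked, 7.52, 10.3 and 10.8 in weak-cloaked and 12.2, 11.5 and 11.2 in medium-cloaked cells, so that strong-cloaked libraries lay below the non-cloaked and medium-cloaked ones and within the weak-cloaked range. MT2A had 253, 289 and 223 CPM in strong-cloaked cells, against 162, 224 and 198 in non-cloaked, 153, 272 and 257 in weak-cloaked and 194, 225 and 201 in medium-cloaked cells. Its strong-cloaked libraries overlapped every other transfected group. The log2 fold changes against non-cloaked cells were -0.14 ± 0.33 for G6PC1, -0.18 ± 0.18 for AREG and 0.39 ± 0.21 for MT2A, none of which passed the test. No list had a member called in strong-cloaked against non-cloaked cells, which does not show that the groups are alike. All comparisons with untransfected cells share the same 3 untransfected libraries.

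**Figure D4:**
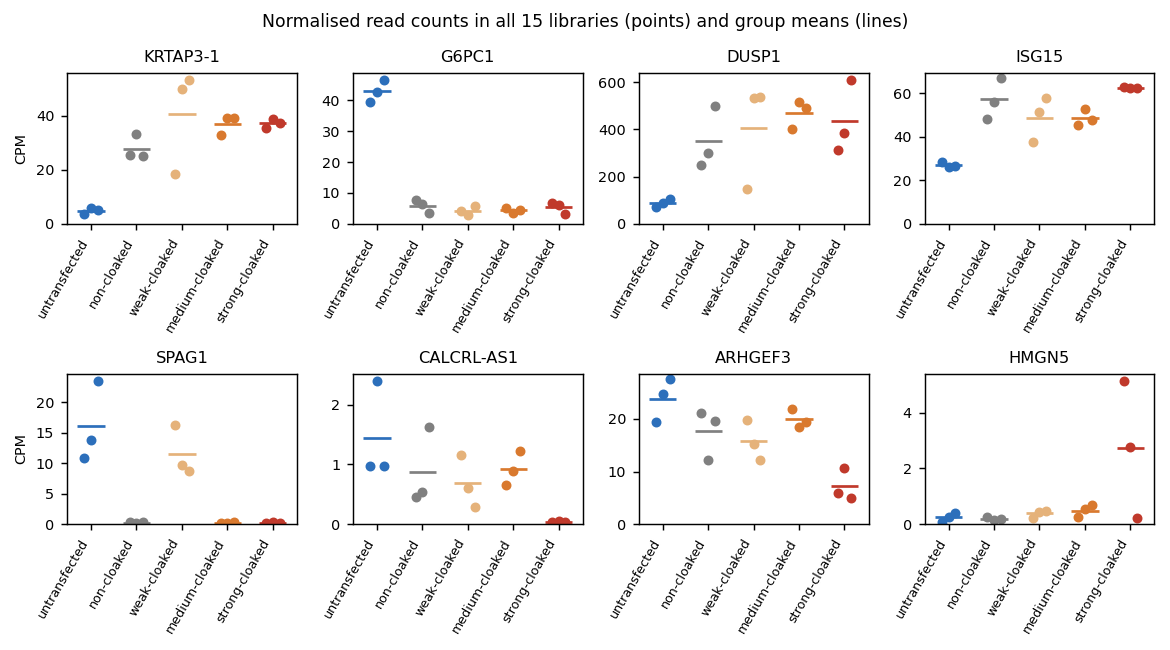
CPM on linear axes that start at 0 for 8 genes in all 15 libraries, by group from untransfected to strong-cloaked; points are libraries and lines group means. SPAG1 is at 0.146 to 0.377 CPM in strong-cloaked and at 8.68 to 16.2 CPM in weak-cloaked libraries, and CALCRL-AS1 is lower in strong-cloaked libraries than in every other library.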

How the data were processed

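Poly(A)-selected RNA with a RIN of at least 7 was sequenced as strand-specific paired reads of 150 bp on an Illumina instrument, per the labels' protocols. The authors deposited raw read counts per gene symbol for 15 libraries of 5 groups; the submitters' processing notes name HISAT2, HTSeq, DESeq2 1.46.0, R 4.4.2 and GRCh38, whereas annotation release and strand setting were not given in the sources used here. Library totals were 57128519 to 78548789 counts. Of 41412 rows, 14176 held no count in any library.

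From these counts, edgeR 4.0.16 (limma 3.58.1, R 4.3.3) fitted all 15 libraries with 1 mean per group, after filterByExpr (18380 genes) and TMM, with robust quasi-likelihood tests and Benjamini-Hochberg adjustment over all tested genes (called below 0.05; biological coefficient of variation 0.344). The scripts were tested on simulated data. Standard errors come from the fold change and its F statistic. P-values measure the spread between the biological replicates of the titles. The members and gene lists were chosen with earlier results of these data known. Genes named were the 12 largest changes in each direction among calls without overlap of the 2 groups whose log2 CPM averaged 1 or more and, with no such filter, the 10 of smallest p and up to 5 called members with the largest change per list; not all of them are printed. In each comparison among transfected groups, which had no calls, they were taken from the 5 of smallest p. Uncalled list members were named with values, and the few genes said to be picked out were chosen after their values were seen. Positions and lengths come from GENCODE 29 on GRCh38, matched by symbol (18286 tested genes, 99.5%), and promoters from RefSeq on GRCh38.p14. Alternatives were RLE or total-count scaling, other filters, the compared groups alone, non-robust estimation, a replicate block, length and GC offsets, DESeq2 1.42.0 and leaving out libraries. Genes that differ 8-fold between replicates were also dropped, without a new fit and chosen after seeing the data. The transfected mRNA itself was not analysed here. Results for some items are not reported here.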

Additional observations from a re-analysis of the deposited data

How the results depend on the processing

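The 2776 calls in strong-cloaked against untransfected cells (1469 higher, 1307 lower, 1068 of 2-fold or more) became 652 higher and 2901 lower with total-count scaling, 1647 of them of 2-fold or more, and 1978 higher and 2107 lower with DESeq2. When 1 library was left out, they ranged from 728 (490 higher, 238 lower, 396 of 2-fold or more; without strong-cloaked replicate 3) to 4191 (2051 higher, 2140 lower, 1370 of 2-fold or more; without weak-cloaked replicate 1); the cause was not tested. RLE factors gave 2770 calls, no filter 2113, a filter of 50 counts 3088, the compared groups alone 3147, non-robust estimation 2752 and length and GC offsets 2894. Dropping genes that differ 8-fold between replicates, without a new fit or adjustment, left 2772. That number shows only how few calls were such genes. The labels name no pairing of replicates. Correlations of same-numbered strong-cloaked and untransfected deviations were -0.0031, 0.0363 and 0.0583, which shows no strong effect shared by replicate number. Over all pairs of groups the largest was 0.174, for replicate 1 of the weak-cloaked and non-cloaked groups. Whether the cultures were paired cannot be read from these values. A replicate block gave 2958 calls, or 3210 with length and GC offsets. Against non-cloaked cells, 2 genes were called in the compared groups alone (2 higher, 2 of 2-fold or more), 15 by DESeq2 (7 higher, 8 lower, 15 of 2-fold or more) and 0 to 1 without a library (0 to 1 higher, 0 to 1 lower, 0 to 1 of 2-fold or more). Against the mean of the other transfected groups, DESeq2 called 14 (4 higher, 10 lower, 14 of 2-fold or more), and 0 to 3 were called without a library (0 to 1 higher, 0 to 3 lower, 0 to 3 of 2-fold or more). Of 232 named genes, 37 lost their call with total-count scaling, 44 without a filter, 29 in the compared groups alone, 33 with length and GC offsets, 15 with the replicate block and 68 to 124 without 1 of the 6 compared libraries. Without a library, the log2 fold change of MT-ND4 was -5.4 to 0.4148, the reversal occurring without untransfected replicate 3, the 1 library of its group with a high value. Counts of replicates of the compared groups differed with a chi-square of 82.85 to 185.2 per degree of freedom, well beyond counting noise, so depth limits mainly genes of few counts.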
